A study of Homo sapiens with 16 samples.

Results

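The heterogeneous nuclear ribonucleoproteins (hnRNPs) are a group of RNA-binding proteins that is defined by association with nuclear pre-mRNA rather than by descent from a single ancestor. The abundant members followed here were HNRNPA2B1, HNRNPA3, HNRNPC, HNRNPD, HNRNPF, HNRNPH1, HNRNPK, HNRNPL, HNRNPM and HNRNPU. These 10 genes were taken by symbol from a fixed list, out of 58302 gene identifiers counted. All 10 were counted in each of the 16 libraries, with 996 to 42168 reads per gene and library, and all 10 passed the filter on low counts in every comparison. In GRCh38 (GENCODE v44) they lie on 9 chromosomes, for example HNRNPA2B1 (ENSG00000122566) at chr7:26171151-26201529 on the minus strand, HNRNPM (ENSG00000099783) at chr19:8444767-8489114 on the plus strand and HNRNPU (ENSG00000153187) at chr1:244840638-244864560 on the minus strand. The transcript used for each is 2142 (HNRNPL) to 6867 (HNRNPU) bases long and has 4 (HNRNPF) to 17 (HNRNPK) exons.

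hnRNPs coat transcripts of RNA polymerase II as they are made, and different members of the group act in splicing, export, translation and decay. Their level matters because they compete with other splicing factors for the same RNA, and many of them act on their own pre-mRNA, where a switch in splicing leads to decay of the transcript. Gemin5 is the subunit of the SMN complex that recognises small nuclear RNAs, the RNA core of the spliceosome, and it also binds the ribosome and individual mRNAs.

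RNA was sequenced from HEK293 cells, a human embryonic kidney line, in 4 groups of 4 libraries. Input was RNA of the cytoplasmic lysate, and Polysome was RNA of the pooled sucrose gradient fractions that hold mRNAs with several ribosomes, after cycloheximide was used to hold ribosomes in place. Each was taken from control cells (Ctrl) and from cells in which Gemin5 was silenced with 100 nM of an siRNA (siRNAG5). Ctrl is called untreated in the labels, while the protocol names a control siRNA. All libraries were made from polyadenylated RNA of a population of cells of 1 line with 1 silencing siRNA, so that a response to Gemin5 loss and a response to that siRNA cannot be told apart, nor can fewer transcripts per cell and fewer cells that hold them.

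Values are CPM, read counts scaled to a library of fixed size with TMM factors over the 16 libraries. The quasi-likelihood test of edgeR was used, and a gene passed when its adjusted p was under 0.05. Reads on genes numbered 11145324 to 24511299 per library. GEMIN5 fell to 0.378 of Ctrl in Input and to 0.369 in Polysome (edgeR adjusted p = 3.11e-10 and 0.00477). Of the 7 HEK293 markers, VIM, KRT18, KRT8, NEFL and NEFM were detected in all groups, while PAX2 and LHX1 were under 2 CPM on average in every group. The summed CPM of 15 liver transcripts was 131 to 151 in Input Ctrl 3 and 4 and 80.8 to 167 in Polysome Ctrl, against 0.371 to 2.69 in the other 10 libraries. Values without Input Ctrl 3 and 4 are given with the results they change, while in Polysome the presence of liver transcripts and the treatment cannot be told apart. Blood and brain markers summed to under 6 CPM per list in every library. The counts are per gene, so that splice isoforms of an hnRNP gene were not separated.

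A siRNA can also lower an mRNA that pairs with bases 2 to 8 of its guide strand, and 3 of the 10 hnRNP genes hold such a site. The guide of the Gemin5 siRNA, as the reverse complement of the strand given in the labels and with the seed in capitals, is

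siRNAG5 guide: tTTCTCTTcttgattaagg

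and the matching site AAGAGAA was looked for on the transcript strand of the 3′ untranslated region of 1 transcript per gene (GENCODE v44, GRCh38). HNRNPA2B1 has 3 sites in its last exon (exon 11 of 11), HNRNPU has 2 in exon 14 of 14 and HNRNPA3 has 1 in exon 11 of 11. These 6 are shown because they are all the seed sites found among the 10 genes, with the site in capitals and the chromosome, start, end and strand in each name.

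HNRNPA2B1, chr7:26191556-26191578, minus: tctagtacAAGAGAActcttgac

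HNRNPA2B1, chr7:26191271-26191293, minus: ataaactcAAGAGAAtaattttt

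HNRNPA2B1, chr7:26190659-26190681, minus: ttaccctgAAGAGAAagttgtag

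HNRNPA3, chr2:177220492-177220514, plus: ttcagagcAAGAGAAtaaaaatc

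HNRNPU, chr1:244854240-244854262, minus: tgaatcgtAAGAGAAcctcagca

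HNRNPU, chr1:244854214-244854236, minus: tgcacgatAAGAGAAtgtgtcag

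A site was present in 25.3% of 12411 genes with an annotated 3′ untranslated region, so 3 of 10 is near the share over all genes. No member transcript held a match to the whole guide. Of the 6 genes that fell in Input below, HNRNPA2B1 has sites and the other 5 have none, and of the 4 that did not pass, HNRNPA3 and HNRNPU have sites. The part of these sites in the changes was not tested.

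Transcripts that begin with a C followed by 4 or more pyrimidines form the class of 5′ terminal oligopyrimidine (TOP) mRNAs, whose association with polysomes is regulated as a group. For each of the 10 hnRNP genes, the start nearest to that of the transcript used was read from the promoter table of RefSeq (GRCh38.p14). None of these starts opens this way, whereas 4.07% of all 35116 listed starts and 45 of 78 listed starts of ribosomal protein genes do. HNRNPH1 has 4 listed starts and HNRNPF, HNRNPK and HNRNPL have 2 each, and their other starts were not looked at. The start read for HNRNPF is 329 bases from that of the transcript used here, and those of the other 9 are at the same base. Below, 4 starts are shown from 10 bases before to 20 bases from the start, with any run of pyrimidines that opens with C at the start in capitals. They are the genes with the largest estimated changes in Polysome (HNRNPA2B1, HNRNPM) and the member with the longest such run at the starts read (HNRNPA3). The last is HNRNPA0, an hnRNP gene outside the 10 whose start has the full run.

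HNRNPA2B1, chr7:26200727-26200756, minus: ctctagcggcagtagcagcagcgccgggtc

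HNRNPM, chr19:8444965-8444994, plus: ccgttcgctcacacaaagcccagacgcgga

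HNRNPA3, chr2:177212784-177212813, plus: cgagtccggtCTCaaaatggaggtaaaacc

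HNRNPA0, chr5:137754344-137754373, minus: gttcagcggcCTCTTTgtgtggtgcccaga

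The 4 sequences differ at the start base itself, which is A in HNRNPA2B1 and HNRNPM and C in HNRNPA3 and HNRNPA0. A start without the run says only that these letters are not at the listed position.

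The 10 mRNAs spanned a wide range of levels, although each was above at least 93.4% of the genes tested in Input. Per kb of transcript, HNRNPA2B1, a splicing and RNA transport factor of the A/B group, was the most abundant in Input Ctrl with 527 ± 24.6 CPM per kb (SD, n = 4). HNRNPC, which binds uridine tracts and packages nascent RNA, followed with 334 ± 13.5 CPM per kb. HNRNPK, a protein with KH domains that binds C-rich RNA, was next with 198 ± 8.49 CPM per kb, and its range overlapped that of HNRNPD, which binds AU-rich elements and was at 179 ± 7.83 CPM per kb.

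HNRNPM, a regulator of alternative splicing, was at 163 ± 14.3 CPM per kb, also overlapping HNRNPD. HNRNPH1, which binds runs of G, was at 116 ± 5.6 CPM per kb. HNRNPL, a binder of CA repeats, was at 101 ± 5.83 CPM per kb, HNRNPA3 at 97.2 ± 6.02 and HNRNPF, a relative of HNRNPH1, at 86 ± 6.34, and neighbouring ranges among these 3 overlapped. HNRNPU, a scaffold protein that binds both chromatin and RNA, was lowest at 41.5 ± 1.34 CPM per kb and was apart from all others. The first 3 places and the last did not depend on which length was used, but with the merged length of all exons only 4 of the 10 genes kept their place, HNRNPA3 moving from place 8 to place 4.

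**Figure D1:**
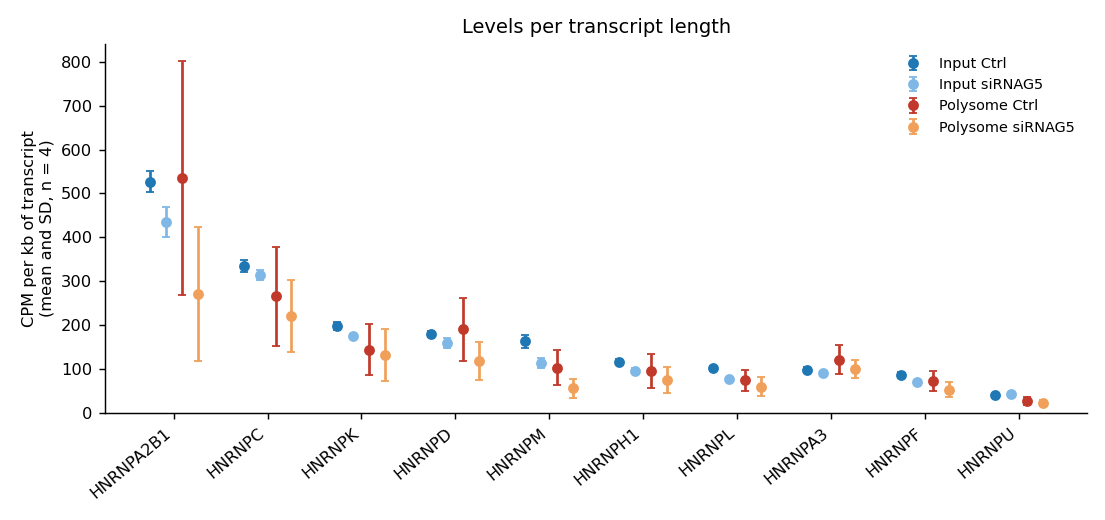
Mean CPM per kb of transcript with SD over 4 libraries (vertical axis, linear from 0) for the 10 hnRNP genes in the order of Input Ctrl (horizontal axis), with the 4 groups in 4 colours. HNRNPA2B1 (527 in Input Ctrl) and HNRNPC (334) stand highest, HNRNPU (41.5) lowest, and the SD is wider in the Polysome groups.

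The order in siRNAG5 Input was the same for the first 6 genes, and HNRNPA3 then stood above HNRNPL. HNRNPA1, an hnRNP gene outside the list, was above all 10 in Input Ctrl with 3075 to 3435 CPM, so the 10 are not the top of the group. Together the 10 genes held 0.457 ± 0.00175% of the reads on genes in Input Ctrl and 0.428 ± 0.0268% in Input siRNAG5 (SD, n = 4). In Polysome the same share was 0.612 ± 0.273% in Ctrl and 0.557 ± 0.274% in siRNAG5. These shares are of reads without TMM scaling, and the scaled sums had the other direction between the fractions. The summed CPM of the 10 was 6032 ± 151 in Input Ctrl and 5470 ± 2218 in Polysome Ctrl. In siRNAG5 it was 5204 ± 263 in Input and 3711 ± 1490 in Polysome.

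The first comparison asked how the hnRNP mRNA pool differed after Gemin5 silencing. In Input, 6 of the 10 mRNAs fell and none rose, at an edgeR adjusted p under 0.05 that 19.1% of 14134 tested genes passed downward and 17.9% upward. The 6 were HNRNPM, HNRNPL, HNRNPF, HNRNPH1, HNRNPA2B1 and HNRNPK. HNRNPM fell by 29.2% and HNRNPK fell by 10.7%. The median log2 FC was −0.21 over the 10 genes and 0.04 over all genes tested. In the same 6 genes no siRNAG5 library reached the lowest Ctrl library, which was so for 18.1% of all genes. The estimates of 9 of the 10 genes were negative, as were those of 46.5% of all genes.

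HNRNPM changed the most among the 10. Its 4 Input Ctrl libraries (replicates 1 to 4 here and below) had 375, 452, 379 and 405 CPM, and its 4 siRNAG5 libraries had 275, 257, 324 and 275 CPM. The groups did not overlap, and siRNAG5 3 was the closest to Ctrl. The log2 FC was −0.50 ± 0.07 (SE), with edgeR adjusted p = 2.87e-06.

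HNRNPL had 199, 226, 225 and 217 CPM in Input Ctrl and 164, 169, 164 and 166 CPM in siRNAG5. Its siRNAG5 libraries were the tightest group of all 10 genes in Input, with an SD of 2.43 CPM, and all 4 were below the lowest Ctrl library. The log2 FC was −0.37 ± 0.06, with edgeR adjusted p = 2.59e-05.

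HNRNPF and HNRNPH1 encode related proteins that bind G-rich RNA next to splice sites. HNRNPF had 202, 241, 225 and 217 CPM in Input Ctrl against 175, 174, 174 and 187 CPM in siRNAG5. HNRNPH1 had 246, 276, 255 and 262 CPM against 192, 216, 212 and 228 CPM. In both genes the groups were separate, and the log2 FC was −0.31 ± 0.07 for HNRNPF and −0.28 ± 0.07 for HNRNPH1 (edgeR adjusted p = 0.000537 and 0.00125).

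HNRNPA2B1, the most abundant of the 10, had 1981, 1980.2, 1893 and 1793 CPM in Input Ctrl and 1397, 1584, 1666 and 1654 CPM in siRNAG5. The groups were apart, with siRNAG5 1 lowest. The log2 FC was −0.27 ± 0.06, with edgeR adjusted p = 0.0012. It overlaps CBX3 on the opposite strand, a gene with 31.8% as many reads over the 16 libraries, and whether the counting used strand is not given in the sources used here.

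HNRNPK had 557, 602, 547 and 582 CPM in Input Ctrl and 501, 520, 506 and 499 CPM in siRNAG5, without overlap. Its log2 FC of −0.16 ± 0.06 passed narrowly (edgeR adjusted p = 0.0296). The adjusted p was over 0.05 without Ctrl 2 (0.0834), siRNAG5 2 (0.0573), siRNAG5 3 (0.0631) or siRNAG5 4 (0.063).

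The other 4 genes did not pass. HNRNPD, which promotes decay of mRNAs with AU-rich elements, had 582, 529, 556 and 535 CPM in Ctrl and 450.1, 477, 535 and 497 CPM in siRNAG5, where siRNAG5 3 reached into the Ctrl range (log2 FC −0.15 ± 0.06, edgeR adjusted p = 0.0515). It passed without Ctrl 2 (0.046), Ctrl 4 (0.0445) or siRNAG5 3 (0.0235), as edgeR adjusted p. HNRNPA3 (−0.10 ± 0.06), HNRNPC (−0.07 ± 0.06) and HNRNPU (0.02 ± 0.06) were nearer to 0. The 95% intervals of the log2 FC were −0.23 to 0.02 for HNRNPA3, −0.19 to 0.05 for HNRNPC and −0.10 to 0.15 for HNRNPU.

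No member reached the log2 FC limit of 0.5 that the study set, which 6.02% of all genes passed downward, although HNRNPM was close to it at −0.497. It was past that limit with DESeq2 (−0.507, DESeq2 adjusted p = 6.74e-09) and with the size factors of DESeq2 in edgeR (−0.507, edgeR adjusted p = 2.64e-06). With 1 library left out in turn, its log2 FC ran from −0.57 to −0.43 and passed each time, so that it lay on either side of the limit. When the 16 libraries were fitted together, none of the 6 passed, where 8.58% of all genes still passed downward. The estimate of HNRNPM was then −0.51 ± 0.27 (edgeR adjusted p = 0.216), against −0.50 ± 0.07 over the Input libraries alone, so that its SE had grown. Without Input Ctrl 3 and 4, which held the liver transcripts, 5 of the 6 passed, where 15.1% of all genes did so, and HNRNPK did not (edgeR adjusted p = 0.0738), with a log2 FC of −0.19 ± 0.08 against −0.16 ± 0.06 over all 8 libraries. With library size alone as the scaling, the median of all genes rose by 0.11, 5 of the 10 genes passed downward, and the members' median minus that of all genes was −0.25, as with TMM.

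**Figure D2:**
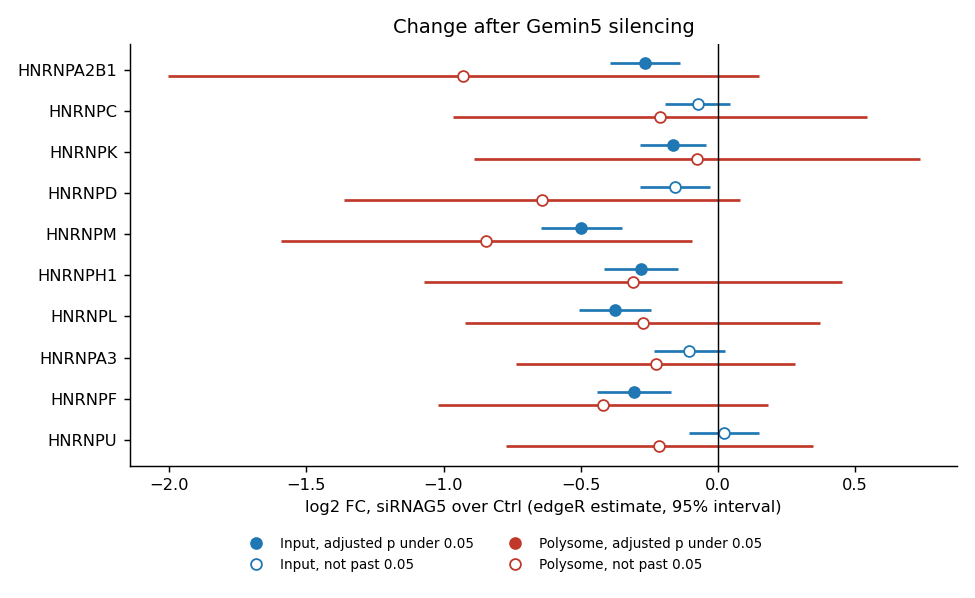
log2 FC of siRNAG5 over Ctrl (horizontal axis) with its 95% interval for the 10 hnRNP genes (vertical axis), in Input (blue) and Polysome (red), where filled points passed an adjusted p of 0.05. In Input 6 points are filled, none of the Polysome points is, and the Polysome intervals are several times wider.

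In Polysome the 10 mRNAs were set apart by library before they were by treatment. Polysome Ctrl 1, siRNAG5 1 and siRNAG5 4 were below the other 5 Polysome libraries for all 10 genes, an order shared by 13.3% of all genes tested, while 7.47% showed the reverse. These 3 libraries had been known to stand apart from earlier results of these data, and principal component 3, computed from 14931 genes without the 10 and the 17 other hnRNP and hnRNP-like genes examined, gave them scores of 35.2 to 38.2 against at most 5 in the other 13 libraries. HNRNPA2B1 was at 487 to 515 CPM in the 3 libraries and at 1403 to 2612 CPM in the other 5. HNRNPA3 was at 414 to 473 CPM against 658 to 803 CPM.

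The same held for genes of each level. HNRNPC was at 364 to 483 CPM in the 3 libraries and at 797 to 1189.5 CPM in the other 5. HNRNPK was at 169 to 239 CPM against 442 to 538 CPM, and HNRNPL at 82.1 to 89.5 CPM against 161 to 202 CPM. The ranges did not meet in any member. The share of reads that aligned to several places was 42.4%, 27.6% and 26.6% in siRNAG5 1, Ctrl 1 and siRNAG5 4 and 21.2 to 32.8% in the other 5. Liver transcripts were high in all 4 Polysome Ctrl libraries and in none of siRNAG5. The part of either in the order of the libraries was not tested. Of the 17 other hnRNP and hnRNP-like genes, 12 had the same order of libraries, and RALY, HNRNPUL1, HNRNPAB, PCBP1 and TARDBP did not.

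**Figure D3:**
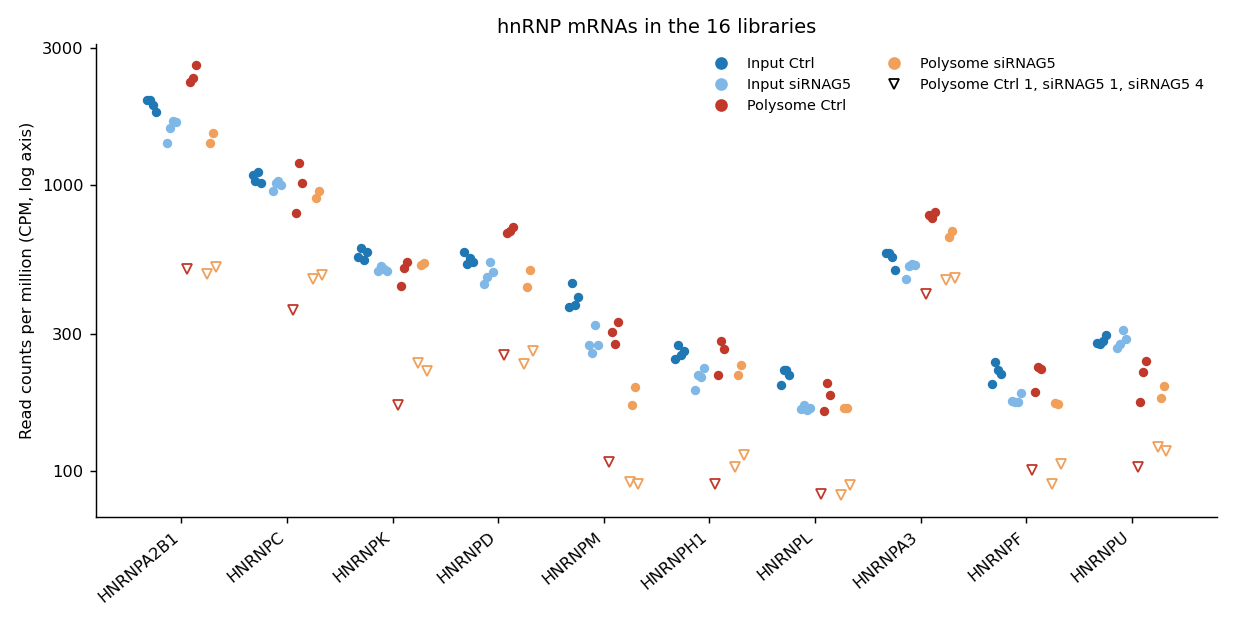
CPM (log axis) of the 10 hnRNP genes in each of the 16 libraries, with the groups in 4 colours and Polysome Ctrl 1, siRNAG5 1 and siRNAG5 4 as open triangles. The triangles lie under all filled Polysome points in every gene, most widely in HNRNPA2B1 (487 to 515 CPM against 1403 to 2612 CPM).

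Over all 8 Polysome libraries, none of the 10 genes passed in either direction at an edgeR adjusted p under 0.05, which 4.09% of 14420 genes passed downward and 4.02% upward. At an unadjusted edgeR p under 0.05, 1 of the 10 was lower and none higher, against 13.3% and 14.4% of all genes. DESeq2 called none at an adjusted p under 0.05. All 10 estimates were negative, as were 46.9% over all genes, and the median log2 FC was −0.29 against 0.03 over all genes. With library size alone as the scaling the median of all genes rose by 0.35 and only 4 of the 10 estimates were negative, while the members' median minus that of all genes was −0.31 (−0.33 with TMM). No member had separate groups of 4, which 9.87% of all genes had in the downward direction.

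HNRNPA2B1 had 506, 2294, 2354 and 2612 CPM in Polysome Ctrl and 487, 1403, 1520.2 and 515 CPM in siRNAG5. Ctrl 1, siRNAG5 1 and siRNAG5 4 were nearly equal, while siRNAG5 2 and 3 were below Ctrl 2, 3 and 4. The log2 FC was −0.93 ± 0.49 (95% interval −2.01 to 0.15, edgeR adjusted p = 0.246).

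HNRNPM had 107, 306, 277 and 330.1 CPM in Polysome Ctrl and 91.4, 170.2, 196 and 90.1 CPM in siRNAG5. Within each set of libraries the siRNAG5 values were the lower ones. The log2 FC was −0.84 ± 0.34 (edgeR adjusted p = 0.136). Without Ctrl 1 it was the only member that passed (−1.10, edgeR adjusted p = 0.0385), and no other single library changed a call of the 10.

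HNRNPD had 253, 680.2, 688 and 710.2 CPM in Polysome Ctrl and 235, 440.5, 505 and 261 CPM in siRNAG5. Again siRNAG5 2 and 3 were below Ctrl 2, 3 and 4, while the 3 libraries that stood apart spanned 235 to 261 CPM. The log2 FC was −0.64 ± 0.33 (edgeR adjusted p = 0.232). The remaining 7 genes had estimates from −0.42 (HNRNPF) to −0.08 (HNRNPK).

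Among these 7, the genes did not share a single order of treatments once the 3 libraries were set aside. HNRNPF had 101, 189, 229.7 and 228 CPM in Polysome Ctrl and 90.2, 173, 172 and 106 CPM in siRNAG5, so that siRNAG5 2 and 3 were below Ctrl 2, 3 and 4. HNRNPH1 had 90.02, 215, 285 and 266 CPM in Ctrl and 103, 216, 234 and 113 CPM in siRNAG5, so that siRNAG5 2 and 3 lay inside the Ctrl range.

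HNRNPK is the clearest case of the latter kind, with 169, 442, 512 and 538 CPM in Ctrl and 239, 523, 534 and 222 CPM in siRNAG5. Here the lowest library was Ctrl 1, and siRNAG5 1 and siRNAG5 4 were at 1.41 and 1.31 times its CPM. HNRNPC had 364, 797, 1189.5 and 1011 CPM in Ctrl and 469.5, 897, 949 and 483 CPM in siRNAG5. It also had its lowest value in Ctrl 1, with siRNAG5 2 and 3 inside the range of Ctrl 2, 3 and 4. The same held for HNRNPU, whose CPM are given below. HNRNPA3 was lowest in Ctrl 1 too, but its siRNAG5 2 and 3 (658 and 691 CPM) were below Ctrl 2, 3 and 4 (783, 765 and 803 CPM). HNRNPL had 82.9, 161, 202 and 184 CPM in Ctrl and 82.1, 166, 166 and 89.5 CPM in siRNAG5.

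When the 3 libraries were left out, 2 of the 10 genes passed downward and none upward, where 13.2% of 14717 genes passed downward. HNRNPA2B1 had a log2 FC of −0.67 ± 0.22 (edgeR adjusted p = 0.045) and HNRNPM one of −0.68 ± 0.17 (edgeR adjusted p = 0.014). HNRNPD was at −0.50 ± 0.19 and did not pass (edgeR adjusted p = 0.0676), and the other 7 lay between −0.27 (HNRNPF) and 0.15 (HNRNPK). In this setting the comparison rests on 3 Ctrl and 2 siRNAG5 libraries.

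When 1 surrogate variable was added to the fit of all 8 libraries, 7 of the 10 passed downward, where 19.7% of all genes did so. They were HNRNPA2B1 (log2 FC −1.17 ± 0.19), HNRNPM (−0.99 ± 0.14), HNRNPD (−0.77 ± 0.14), HNRNPF (−0.53 ± 0.11), HNRNPH1 (−0.45 ± 0.12), HNRNPL (−0.42 ± 0.11) and HNRNPU (−0.29 ± 0.10). HNRNPC, HNRNPK and HNRNPA3 did not pass. HNRNPA2B1, HNRNPM and HNRNPD had the 3 lowest estimates under all 3 fits.

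**Figure D4:**
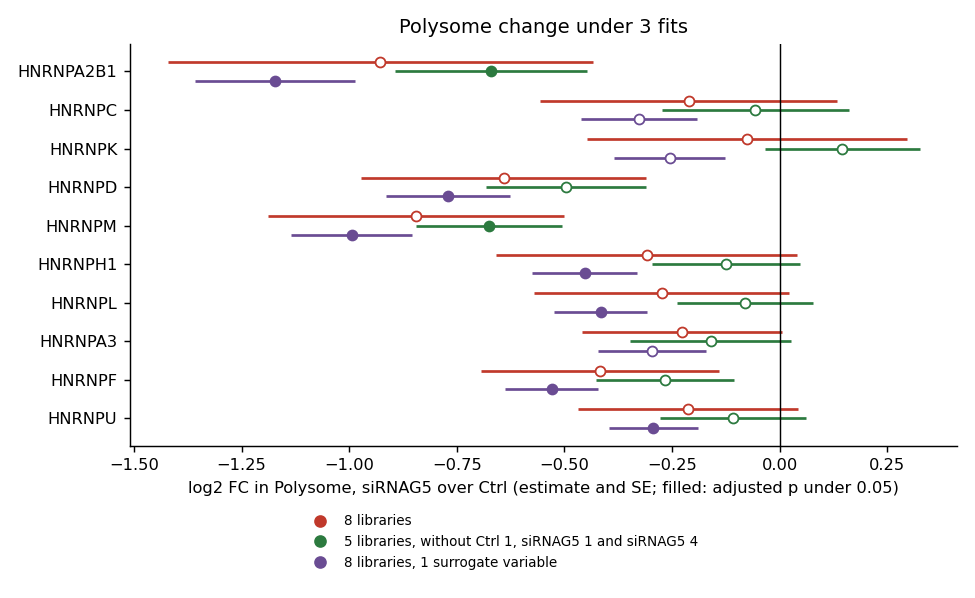
log2 FC of siRNAG5 over Ctrl in Polysome (horizontal axis, point and SE) for the 10 hnRNP genes, fitted over 8 libraries (red), over 5 libraries without Ctrl 1, siRNAG5 1 and siRNAG5 4 (green) and over 8 libraries with 1 surrogate variable (violet), where filled points passed an adjusted p of 0.05. HNRNPA2B1, HNRNPM and HNRNPD are leftmost in each colour, and 0, 2 and 7 points are filled.

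Whether silencing moved an mRNA differently in Polysome and in Input was tested as the difference of both changes, in a fit of the 16 libraries. None of the 10 genes passed, nor did any of the 14958 genes (0% in either direction). At an unadjusted edgeR p under 0.05 none of the 10 was lower or higher, where 4.69% and 2.59% of all genes were. DESeq2 called none of the 10 at an adjusted p under 0.05. The differences with the widest size were −0.70 ± 0.54 for HNRNPA2B1, −0.52 ± 0.36 for HNRNPD and −0.39 ± 0.38 for HNRNPM on the log2 scale. The 95% interval for HNRNPA2B1 ran from −1.83 to 0.42. Without the 3 libraries that stood apart, 4.41% of all genes passed downward and still none of the 10, with −0.43 ± 0.16 for HNRNPA2B1 (edgeR adjusted p = 0.118). With 1 surrogate variable HNRNPA2B1 and HNRNPD passed downward, where 403 of 14958 genes were lower and 80 higher. That variable, however, differed between the fractions.

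Polysome was also compared with Input within each treatment. In Ctrl, HNRNPU was lower in Polysome and no other member passed, where 21.9% of all genes passed downward and 22.8% upward. In siRNAG5, HNRNPU and HNRNPM were lower, where 31.1% of all genes passed downward and 25% upward. No member was higher in Polysome in either treatment. The median log2 FC was −0.30 in Ctrl and −0.43 in siRNAG5 over the 10 genes, against −0.04 and −0.12 over all genes. Under library size alone the medians of all genes rose by 0.55 and 0.81, the calls of HNRNPU and HNRNPM were lost, and HNRNPA3 was called higher in both treatments. In that setting 7701 of 14958 genes were called higher in Ctrl and 9597 in siRNAG5.

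HNRNPU had 279, 278, 285 and 298 CPM in Input Ctrl and 103, 174, 221 and 242 CPM in Polysome Ctrl. In siRNAG5 it had 269, 279, 311 and 289 CPM in Input and 121, 180.1, 198 and 117 CPM in Polysome. Every Polysome library was below every Input library of its treatment, as for 22.1% of all genes in Ctrl and 27.3% in siRNAG5, with the 3 libraries that stood apart lowest. The log2 FC of Polysome over Input was −0.62 ± 0.20 in Ctrl and −0.90 ± 0.20 in siRNAG5 (edgeR adjusted p = 0.0171 and 0.000977), and it stayed past the threshold without the 3 libraries at −0.41 ± 0.10 and −0.57 ± 0.11. In Ctrl the call was lost without Input Ctrl 3 and 4, where the log2 FC was −0.59 ± 0.26, with a wider SE (edgeR adjusted p = 0.0957). The Input Ctrl libraries kept there were low in liver transcripts, while all Polysome Ctrl libraries held them. Fraction and liver transcripts therefore cannot be told apart in that setting. HNRNPU overlaps COX20 on the opposite strand, which has 14.6% as many reads.

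HNRNPM, whose CPM are given above, was also below Input in every Polysome library of its treatment. So were HNRNPK in Ctrl and HNRNPF in siRNAG5, which makes 3 of the 10 genes in each treatment, where 22.1% and 27.3% of all genes were so. For HNRNPM the log2 FC of Polysome over Input was −1.05 ± 0.27 in siRNAG5 (edgeR adjusted p = 0.00314) and −0.66 ± 0.27 in Ctrl (edgeR adjusted p = 0.0553, or 0.036 without Polysome Ctrl 4). With the replicate number as a block it passed in Ctrl as well (−0.77 ± 0.24, edgeR adjusted p = 0.017), as did HNRNPL (−0.53 ± 0.20, edgeR adjusted p = 0.048). Under that block 3355 of 14958 genes passed downward in Ctrl. Both fractions came from the same lysates according to the methods, but whether the numbers follow the lysates is not given in the sources used here. Without the 3 libraries the log2 FC of HNRNPM was −0.60 ± 0.12 in siRNAG5 and −0.39 ± 0.10 in Ctrl and passed in both (edgeR adjusted p = 0.000118 and 0.00265), where 36% and 27% of all genes passed downward.

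HNRNPA3 was the member with the highest estimate of Polysome over Input in both treatments, 0.32 ± 0.18 in Ctrl and 0.16 ± 0.18 in siRNAG5, and it did not pass. It had 577, 579, 558 and 505 CPM in Input Ctrl and 414, 783, 765 and 803 CPM in Polysome Ctrl, so that Ctrl 1 alone was below the Input range. Without Polysome Ctrl 1 the estimate in Ctrl was 0.51 and passed (edgeR adjusted p = 0.00576). In siRNAG5 it had 468, 522, 530 and 526 CPM in Input and 463, 658, 691 and 473 CPM in Polysome. Without the 3 libraries HNRNPA3 was higher in Polysome by 0.51 ± 0.09 in Ctrl and by 0.43 ± 0.10 in siRNAG5 (edgeR adjusted p = 5.16e-05 and 0.000881), where 26.3% and 29% of all genes were higher. Its NFE2L2 neighbour on the opposite strand has 4.67% as many reads, and 13 of its 16 annotated pseudogenes took reads, 1.29% of its own in sum.

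The other fraction results in Ctrl also turned on the 3 libraries. Without them HNRNPA2B1 (0.35 ± 0.10) and HNRNPD (0.35 ± 0.09) were higher in Polysome Ctrl as well, and HNRNPL was lower (−0.23 ± 0.09, edgeR adjusted p = 0.0317), where 27% of all genes were lower. In siRNAG5 without them the same estimates were −0.08 ± 0.12 for HNRNPA2B1, −0.02 ± 0.11 for HNRNPD and 0.03 ± 0.10 for HNRNPL, and none of these passed. Over all libraries the Ctrl estimates were 0.02 ± 0.38 for HNRNPA2B1 and 0.08 ± 0.26 for HNRNPD, and with the replicate number as a block they were −0.18 and −0.02.

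**Figure D5:**
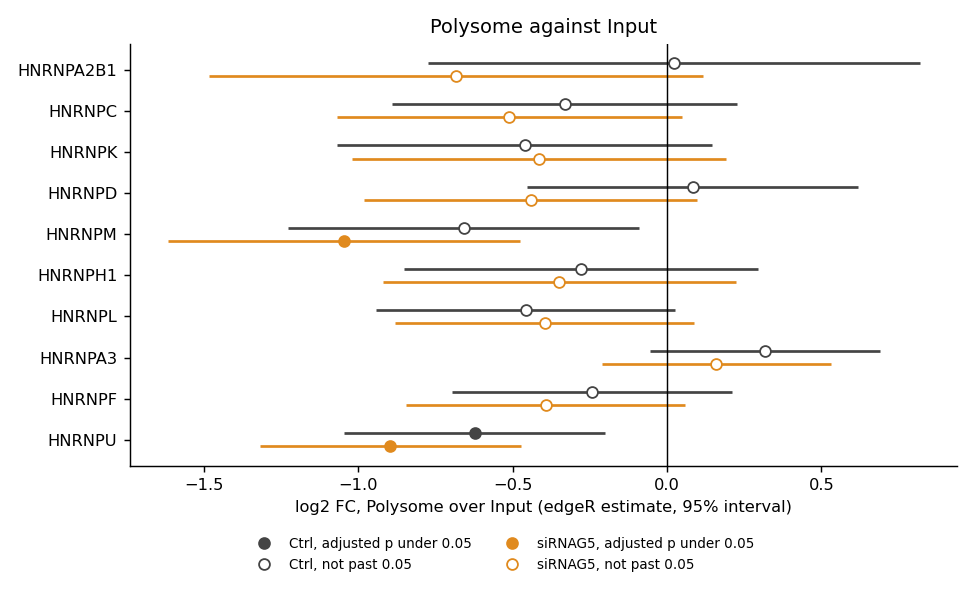
log2 FC of Polysome over Input (horizontal axis) with its 95% interval for the 10 hnRNP genes (vertical axis) in Ctrl (grey) and siRNAG5 (orange), over all 16 libraries, where filled points passed an adjusted p of 0.05. HNRNPU is filled in both treatments (−0.62 and −0.90), HNRNPM in siRNAG5 (−1.05), and HNRNPA3 is farthest to the right.

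The 17 other hnRNP and hnRNP-like genes give the setting of the 10. In Input 7 of the 17 fell and 3 rose at the same threshold, beside 6 and 0 of the 10, where 19.1% of all genes fell and 17.9% rose. HNRNPDL (log2 FC −0.64), HNRNPAB (−0.39), TARDBP (−0.37), SYNCRIP (−0.36), PTBP1 (−0.30), PCBP1 (−0.29) and HNRNPA0 (−0.23) fell. HNRNPA1 (0.24), PCBP2 (0.24) and HNRNPUL2 (0.57) rose. HNRNPDL, a relative of HNRNPD, thus changed more than any of the 10, and HNRNPA1, a relative of HNRNPA2B1 and HNRNPA3, had the other direction.

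In Polysome 3 of the 17 fell and none rose, where 4.09% of all genes fell and 4.02% rose. They were HNRNPAB (−0.71 ± 0.18, edgeR adjusted p = 0.0333), PCBP1 (−0.68 ± 0.19, adjusted p = 0.0469) and TARDBP (−0.64 ± 0.16, adjusted p = 0.0364). All 3 are among the 5 genes whose Polysome libraries did not have the order described above for the 10. Their SE was at most 0.19, against 0.23 to 0.49 for the 10.

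The genes whose pattern over the 16 libraries was most like the mean of the 10, by Pearson's r of centred log2 CPM among 14931 genes outside the 10 and the 17 other hnRNP genes, were RPA1 (r = 0.985), AFG3L2 (0.984), MCM10 (0.983), SSRP1 (0.981) and SSB (0.979). RPA1, MCM10 and SSRP1 act in DNA replication or on chromatin, AFG3L2 is a mitochondrial protease, and SSB is the La protein that binds new RNA polymerase III transcripts. Because the 5 were picked by this pattern, their order of libraries is no separate result. Each of them lay lower in the same 3 Polysome libraries than in the other 5, as did 13.3% of all genes. RPA1, for instance, was at 58.2 to 64.1 CPM against 109 to 139 CPM. These r values are over libraries that share treatment, fraction and depth. Among the 10 themselves, r with their own mean was 0.889 to 0.987 for all but HNRNPA3, where it was 0.62. Each member is part of that mean, which raises its r, so these values cannot be set against those of the 5 genes.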

How the data were processed

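Samples were grouped by the labels. According to the methods, the authors aligned stranded poly(A) libraries to GRCh38 (Ensembl release 91) with STAR 2.5.3a and counted reads per gene with QoRTs. The authors deposited these whole-number counts for 16 libraries without normalization. Reads listed as mapping to several places (4.88 to 42.4% of a library) or to more than 1 gene (4.14 to 7.41%) were set apart by the authors and left out here.

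Counts were tested with the quasi-likelihood method of edgeR 4.0.16 (R 4.3.3), after filterByExpr and TMM scaling, in each fraction apart with treatment as the term, and contrasts between fractions came from a fit of 4 groups over 16 libraries, with Benjamini-Hochberg adjustment over all genes tested. CPM used TMM factors over the 16 libraries, and log2 CPM a prior count of 2. Alternatives were DESeq2 1.42.0, other scalings, no filter on low counts, a replicate block, other sets of libraries, and 1 surrogate variable (sva 3.50.0). Gene positions and lengths came from GENCODE v44. Named genes were the 10 members, GEMIN5, other hnRNP genes past the threshold after silencing in either fraction, the 5 most similar genes, and overlapping or duplicate genes with over 1% of a member's reads. One gene of the list of other hnRNP genes is not reported here. HNRNPUL1, RALY and other names outside this rule were added after their values were seen. The members, the lists and the libraries left out were chosen with earlier results of these data known. Leaving out Input Ctrl 3 and 4 was an alternative chosen after seeing the data. The labels name 4 replicates per group as separate samples, and the methods call them independent.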

Additional observations from a re-analysis of the deposited data

Results flagged for a closer look

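Each member's CPM was looked at within the 4 groups of 4 libraries, 40 sets of 4 values in all, for a library whose gap to the nearest of the others took up most of the range. Chance marks about 1 in 20 such sets, and 5 were marked. In Polysome Ctrl, replicate 1 was apart for HNRNPA2B1 at 506 CPM (the others 2294 to 2612), for HNRNPA3 at 414 CPM (765 to 803) and for HNRNPD at 253 CPM (680.2 to 710.2). In Input siRNAG5, replicate 1 was apart for HNRNPA3 at 468 CPM (522 to 530), and replicate 4 for HNRNPF at 187 CPM (174 to 175). The Polysome Ctrl library is 1 of the 3 that stood apart in every member. The cause was not tested.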

How the results depend on the processing

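The 10 members' changes gave 890 values under the alternatives, of which 818 kept their side of the threshold, 60 of these with a change of sign but no call. In Input, 6 members fell in the reported fit, and 5 to 7 did so with 1 library left out. The count was 0 with 16 libraries in one fit and 0 beyond a log2 FC of 0.5 (HNRNPM was past it by DESeq2 and with its size factors, at −0.507, and without Input Ctrl 3 and 4, at −0.54). In Polysome, where 0 fell, 0 to 1 did with 1 library left out, and 1 with no filter on low counts, 1 with 16 libraries in one fit, 7 with 1 surrogate variable and 2 without Ctrl 1, siRNAG5 1 and siRNAG5 4. Over all genes, 590 fell there in the reported fit, 941 with no filter and 2152 with 16 libraries in one fit. For Polysome against Input in Ctrl, where 1 was lower, the counts were 1 to 2 with 1 library left out, 0 with library size alone, 4 with no filter, 3 with the replicate block (HNRNPL, HNRNPM and HNRNPU), 2 with the 8 libraries of the contrast alone, 10 with 1 surrogate variable, 0 without Input Ctrl 3 and 4 and 3 without the 3 Polysome libraries. Over all genes, 3280 of 14958 were lower in the reported fit and 3277 with no filter. The replicate block gave 3355, the 8 libraries 3166 and 1 surrogate variable 2785. Members higher there numbered 0 to 1 with 1 library left out, 1 with library size alone and 3 without the 3 Polysome libraries, where 0 were reported. In siRNAG5, where 2 were lower, 0 were so with library size alone, 4 with no filter and 10 with 1 surrogate variable, and 1 was higher with library size alone and 1 without the 3 Polysome libraries. Of all genes, 4658 were lower in siRNAG5 in the reported fit, 4495 with no filter and 3075 with 1 surrogate variable. For the difference between fractions, 2 members passed downward with 1 surrogate variable, where 403 of 14958 genes were lower and 80 higher. That variable reversed the fraction estimates of HNRNPA2B1 (−2.55), HNRNPA3 (−0.65) and HNRNPD (−1.498) in Ctrl and of HNRNPA3 (−0.98) in siRNAG5, and it differed in level between the fractions (−0.321 to −0.193 in Input, 0.0958 to 0.401 in Polysome). By merged exon length 4 of 10 members kept their place in the order of levels.

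With library size alone, calls over all genes moved from 2695 lower and 2535 higher to 1812 and 3726 in Input, from 590 and 580 to 259 and 2422 in Polysome, from 3280 and 3417 to 898 and 7701 for the fractions in Ctrl, and from 4658 and 3742 to 959 and 9597 in siRNAG5. DESeq2 called 1332 lower and 955 higher in Polysome. Deviations of same-numbered Ctrl and siRNAG5 libraries correlated at −0.530 to 0.483 in Polysome and −0.0344 to 0.0687 in Input. Those of same-numbered Input and Polysome libraries correlated at −0.207 to 0.222. These values cannot decide whether replicate numbers pair the libraries, because the deviations in Polysome also carry the 3 libraries that stood apart. The replicate block left the members' count at 6 in Input and 0 in Polysome. Apart from the results with a cause in the construction of the alternative, the cause was not tested. The SE of the members' log2 FC was 0.23 to 0.49 in Polysome, against 0.06 to 0.07 in Input.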
